A study of Mus musculus with 5 samples.

Results

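Gzma-high NK cells are natural killer cells that carried at least 5 UMIs of Gzma, the transcript of granzyme A (a UMI is a molecular tag that counts 1 captured transcript). They were taken from live CD45+ cells of B16-F10 tumours, which are a transplantable melanoma of the mouse. A barcode with at most 10% of its UMIs from mitochondrial genes was a member if it held at least 1 UMI of Ncr1, no UMI of Cd3e, Cd3d or Cd8b1, no UMI of Csf1r, C1qa or Cd79a, and at least 5 UMIs of Gzma. This gave 1802 cells of 37468 barcodes, of which 88 came from PBS, 266 from anti-PD1, 750 from IL15 superagonist, 579 from combination and 119 from fusion. Gzma and the other 7 genes of the rule were the values the members were chosen by, and their levels are given as a description.

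The series compared 5 treatments of mice bearing tumours that had been started with 500000 B16-F10 cells under the skin, with resection given as day 11 and treatment listed after it. The groups were PBS, an anti-PD1 antibody, an IL15 superagonist, the superagonist given together with anti-PD1 (combination), and a single protein in which IL15, named as an engineered mutein in the series title, is fused to anti-PD1 (fusion). Each treatment is 1 library made with a droplet 5′ kit, and the number of mice behind a library, their strain and the doses are not stated in the labels. Values of 2 libraries can therefore be compared as libraries, while the effect of a treatment cannot be told apart from differences between single libraries.

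NK cells kill without prior sensitisation by releasing perforin and granzymes, and they are steered by activating and inhibitory receptors, among them the Ly49 family encoded by the Klra genes, which reads MHC class I. IL-15 is the cytokine on which their survival and expansion depend, and it signals through IL-2/IL-15 receptor beta (Il2rb) and the common gamma chain (Il2rg). In mouse tissues, conventional NK cells share Ncr1 with group 1 innate lymphoid cells (ILC1), which keep tissue-retention genes and as a rule make less granzyme A and fewer Ly49 receptors.

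The label was set beside genes that the rule did not use. All 16 NK markers, 14 of them outside the rule, had at least 1 UMI over the summed members of every library. That is a low bar and does not test the label. Nkg7, a granule membrane protein, was seen in 97.7 to 100% of the cells, and Prf1, perforin, in 46.6 to 89.1%. Klra4 and Klra8, the Ly49 markers named with the label, were seen in 41.2 to 45.9% and 32.8 to 54.5%, and are given as a description. Other cell types left traces that differed between the libraries. Cd3g, a T cell receptor subunit that the rule did not remove, was seen in 14.3% of the cells in fusion, 11.2% in combination, 9.47% in IL15 superagonist, 3.01% in anti-PD1 and 1.14% in PBS, against 93.5% of the PBS cells of a CD8 T cell gate (Cd3e or Cd3d, and Cd8b1, without Ncr1). In a macrophage gate (C1qa and Csf1r without Cd3e, Cd3d or Ncr1), which should lack Cd3g, it was seen in 11.0% of the cells in fusion and 1.43 to 2.03% in the other 4 libraries. Trac, the T cell receptor alpha constant gene, was seen in 8.65 to 21.8% of the members. Trbc1, a beta constant gene, was seen in 67.0% of PBS members and 37.8% of fusion members, against 59.4% of the PBS CD8 T cell gate. CPM are UMIs of a gene per 1000000 UMIs of the members. The 15 T cell markers summed to 732 CPM in PBS, 344 in fusion and 458 to 563 elsewhere. PBS was thus highest and fusion lowest on this sum, the reverse of Cd3g. The 7 neutrophil markers summed to 1279 CPM in PBS and to 4.45 to 141 CPM elsewhere. In PBS, 2 cells held 99.4% of the S100a8 and S100a9 UMIs. Melanoma markers stayed at or under 7.2 CPM.

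The members' total depth ran from 277477 UMIs in PBS to 3069563 in IL15 superagonist, with medians per cell of 2701.5 to 3973 UMIs. PBS is the smallest and shallowest of the 5, and some genes stood apart in it across cell types. A gene was counted if it differed from every other library by more than 0.5 on the log2 scale. It had to do so in the members, in the macrophage gate and in the CD8 T cell gate. Of 4008 genes, 7 were counted as higher and 18 as lower in PBS, against 1 and 6 in fusion and 0 in the other 3. Genes that differed in the members alone do not enter these counts. Gzmb was among the 18, so many of the comparisons with PBS are given against anti-PD1 too. In fusion the 1 higher gene was Lgals3, and Cxcr4 was among the 6 lower, so neither was particular to the members. Pairs of libraries shared 61 to 104 barcode sequences, and 2 barcodes were members in both anti-PD1 and combination. Levels below are CPM of UMIs summed over the members of a library. Intervals are exact 95% intervals that cover counting error only, and no p-value is given between treatments because each has 1 library. Some levels are also given after 2 removal steps, stricter T cell removal (Cd3g, Cd8a, Cd4 and Trac also at 0) and a doublet step that leaves out barcodes bearing myeloid or B cell markers.

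Gzma-high NK cells were most frequent in IL15 superagonist and least frequent in PBS and fusion. They made up 1.37% (1.14 to 1.64) of barcodes in fusion, 6.82% (6.29 to 7.37) in combination, 11.2% (10.5 to 12) in IL15 superagonist, 3.65% (3.23 to 4.10) in anti-PD1 and 1.48% (1.19 to 1.82) in PBS. The intervals of PBS and fusion overlap, while those of the other 3 libraries lie apart from each other and from both. As a share of T and NK cells together, the order was IL15 superagonist at 18.3%, anti-PD1 at 12%, combination at 10.7%, PBS at 4.69% and fusion at 1.60%, so fusion was below PBS once other leukocytes were left out. A share of a library also moves with every other cell type in it. The NK gate is the same rule without the Gzma minimum, and its Gzma-low cells, with 0 to 4 Gzma UMIs, did not show this spread, since they stood between 0.462% of barcodes in fusion and 1.26% in PBS. Of the whole NK gate, Gzma-high cells were 74.8% (67.4 to 81.4) in fusion, 86.4% (83.6 to 88.9) in combination, 91.4% (89.2 to 93.2) in IL15 superagonist, 83.6% (79.1 to 87.5) in anti-PD1 and 54.0% (46.0 to 61.8) in PBS. PBS lies below all 4 others on this measure, and its interval does not reach theirs.

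**Figure D1:**
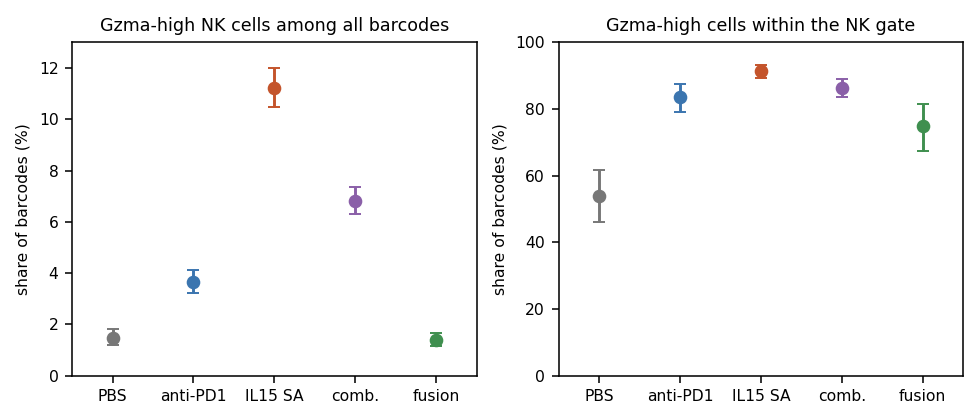
Share of barcodes (%) that were Gzma-high NK cells, of all barcodes and of the NK gate, in each of the 5 libraries (IL15 SA is IL15 superagonist, comb. is combination), with points for the share and bars for its exact 95% interval. IL15 superagonist is highest on both, at 11.2% and 91.4%, and PBS is lowest of the gate at 54.0%.

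The amount of Gzma per member differed between the libraries as well, and combination was highest. The median member held 54 Gzma UMIs in fusion, 80 in combination, 65 in IL15 superagonist, 35.5 in anti-PD1 and 12.5 in PBS, and the highest held 949, 269, 250, 284 and 68 in that order. Granzyme A is a serine protease that enters target cells through perforin. Per 10000 UMIs of a cell the medians were 150 in fusion, 202 in combination, 174 in IL15 superagonist, 94.0 in anti-PD1 and 49.9 in PBS. The order of the 5 libraries was thus the same with depth per cell divided out. Gzma made up 0.563% of all UMIs of the members in PBS and 1.98% in combination. Near the threshold, 16 PBS cells of the gate held 3 or 4 Gzma UMIs and 14 held 5 or 6, while the other libraries had 3 to 9 cells just below it and 1 to 7 just above. The threshold thus passes through the PBS cells and lies in a sparse range elsewhere. In the macrophage gate, which should lack Gzma, 0.342 to 1.37% of cells reached 5 UMIs, although those cells were deeper, with medians of 6196.5 to 8755.5 UMIs.

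Prf1, which forms the pores through which granzymes pass, was more abundant in every treated library than in PBS. It stood at 726 CPM in fusion (662 to 794), 1074 in combination (1034 to 1116), 1124 in IL15 superagonist (1087 to 1162), 705 in anti-PD1 (657 to 755) and 252 in PBS (197 to 319). PBS was lowest, anti-PD1 and fusion overlapped, and the libraries with free superagonist were highest. This is 2.79-fold (2.19 to 3.62) above PBS in anti-PD1, 4.46-fold (3.52 to 5.73) in IL15 superagonist, 4.26-fold in combination and 2.88-fold in fusion. Against anti-PD1, Prf1 was 1.60-fold higher in IL15 superagonist, 1.52-fold in combination and 1.03-fold in fusion. Thinned to 2000 UMIs per cell, Prf1 was seen in 36.5% of the cells of PBS and 63.9 to 77.9% of those of the other libraries, and in at most 2.11% of the cells of the macrophage gate.

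Gzmb, granzyme B, which cuts caspases and their substrates, stood at 3401 CPM in fusion, 2456 in combination, 2675 in IL15 superagonist, 2808 in anti-PD1 and 1218 in PBS. PBS was lowest and the other 4 lay close together. The level over PBS was 2.31-fold in anti-PD1, 2.20-fold (1.97 to 2.46) in IL15 superagonist and 2.79-fold in fusion, but IL15 superagonist was 1.05-fold below anti-PD1. Gzmk, granzyme K, was the granzyme that separated the superagonist libraries most plainly. It had 0 UMIs in PBS and stood at 39.5 CPM in fusion (25.8 to 57.9), 185 in combination (169 to 203), 204 in IL15 superagonist (188 to 221) and 12.2 in anti-PD1 (6.67 to 20.5). It was seen in 33.3% of the cells of IL15 superagonist and 30.1% of combination, against 4.14% in anti-PD1 and 10.9% in fusion. IL15 superagonist was thus at least 18.9-fold above PBS, taking 3 UMIs over the PBS cells as the floor, and 16.7-fold (9.89 to 30.8) above anti-PD1. Cma1, a chymase gene that lies on chromosome 14 as the Gzmb cluster does, was highest in IL15 superagonist as well, at 132 CPM against 54.1 in PBS.

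Of 20 measured genes of the cytotoxic granule list, 9 were at least 2-fold higher in IL15 superagonist than in PBS and 0 lower. The median log2 ratio was 0.86 against 0.06 over all genes. Over all 5882 genes of that comparison, 9.25% were at least 2-fold higher and 5.9% lower. The 9 include Prf1, Gzmb and Gzmk, and also Gzmc, Gzmd, Gzme, Gzmf and Gzmg, which few cells held. Combination against PBS gave 9 of 19 higher and 0 lower, where 8.65% of all genes were higher and 5.42% lower. Fusion gave 7 of 15 higher, where 11.5% of all genes were higher and 8.51% lower, and anti-PD1 gave 3 of 14, namely Prf1, Gzmb and Gzmc, where 5.42% were higher and 2.49% lower. The 4 comparisons share the PBS library, so a low value there enters all of them. Against anti-PD1, 3.22% of genes were at least 2-fold higher and 2.82% lower in IL15 superagonist, and 2.51% higher and 4.87% lower in fusion. Of the granule genes, 5 of 20 were higher in IL15 superagonist, namely Gzmd to Gzmg and Gzmk, and 5 of 19 in fusion, namely Gzmc to Gzmg. None was lower by 2-fold in either, so Prf1 and Gzmb were past 2-fold against PBS and not against anti-PD1.

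The granzyme genes are shown by their promoters because Gzma, on chromosome 13 (GRCm38 chr13:113093825-113100981, minus strand in GENCODE M21), and the cluster on chromosome 14 that holds Gzmb to Gzmg differed so much between cells and libraries. The sequences are the 250 bases before each RefSeq start (GRCm38.p6), read 5′ to 3′ on the gene's strand, and capitals mark TGTGGT, the core that Runx factors bind, on either strand (ACCACA on the other).
Gzma chr13:113100982-113101231: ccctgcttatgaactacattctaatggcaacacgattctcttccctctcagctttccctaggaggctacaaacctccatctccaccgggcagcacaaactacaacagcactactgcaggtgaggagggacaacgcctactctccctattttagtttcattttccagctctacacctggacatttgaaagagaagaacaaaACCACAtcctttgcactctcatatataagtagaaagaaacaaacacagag
Gzmb chr14:56262335-56262584: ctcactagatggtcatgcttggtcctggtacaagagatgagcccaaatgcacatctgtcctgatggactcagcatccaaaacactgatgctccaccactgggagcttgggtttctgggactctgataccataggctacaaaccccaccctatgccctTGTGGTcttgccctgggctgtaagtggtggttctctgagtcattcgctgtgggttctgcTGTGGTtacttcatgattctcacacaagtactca
Gzmc chr14:56234658-56234907: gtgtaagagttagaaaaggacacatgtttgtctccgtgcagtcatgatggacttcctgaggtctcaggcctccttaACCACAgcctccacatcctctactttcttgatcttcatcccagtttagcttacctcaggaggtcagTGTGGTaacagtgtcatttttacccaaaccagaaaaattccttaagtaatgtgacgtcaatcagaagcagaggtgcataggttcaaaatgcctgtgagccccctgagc
Gzmd chr14:56132594-56132843: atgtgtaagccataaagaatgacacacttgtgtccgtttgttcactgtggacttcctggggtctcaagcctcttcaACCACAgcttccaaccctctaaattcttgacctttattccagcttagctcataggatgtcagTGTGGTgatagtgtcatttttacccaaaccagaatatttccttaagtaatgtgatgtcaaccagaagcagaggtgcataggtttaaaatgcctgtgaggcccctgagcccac
Gzme chr14:56120626-56120875: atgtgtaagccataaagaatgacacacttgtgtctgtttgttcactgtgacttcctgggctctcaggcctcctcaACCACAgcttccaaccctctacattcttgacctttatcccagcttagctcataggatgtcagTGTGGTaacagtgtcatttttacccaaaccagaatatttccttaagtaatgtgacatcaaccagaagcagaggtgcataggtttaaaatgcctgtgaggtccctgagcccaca
The motif TGTGGT occurs 1 time in the window of Gzma, 2 times in each of those of Gzmb to Gzmg and 0 times in that of Gzmk, and 14.05% of the 32851 promoters of the same length hold it. The windows of Gzmd and Gzme are 95.2% identical and those of Gzma and Gzmb 51.6%. The first 300 bases of the transcripts of Gzmd and Gzme are 86.0% identical, so reads of Gzmc to Gzmg may be split between near copies, and their separate levels are uncertain.

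The chemokine Ccl5, which draws T cells and dendritic cells, was the most abundant effector transcript listed. It stood at 16608 CPM in fusion, 24980 in combination, 24421 in IL15 superagonist, 12435 in anti-PD1 and 7702 in PBS, and 94.1 to 99.5% of cells held it. Every library was above PBS, by 1.62-fold in anti-PD1, 3.17-fold (3.04 to 3.31) in IL15 superagonist, 3.24-fold in combination and 2.16-fold in fusion, and IL15 superagonist was 1.96-fold above anti-PD1. Xcl1, which draws cross-presenting dendritic cells, was lowest in the libraries with free superagonist, at 814 CPM in fusion, 480 in combination, 409 in IL15 superagonist, 726 in anti-PD1 and 757 in PBS.

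**Figure D2:**
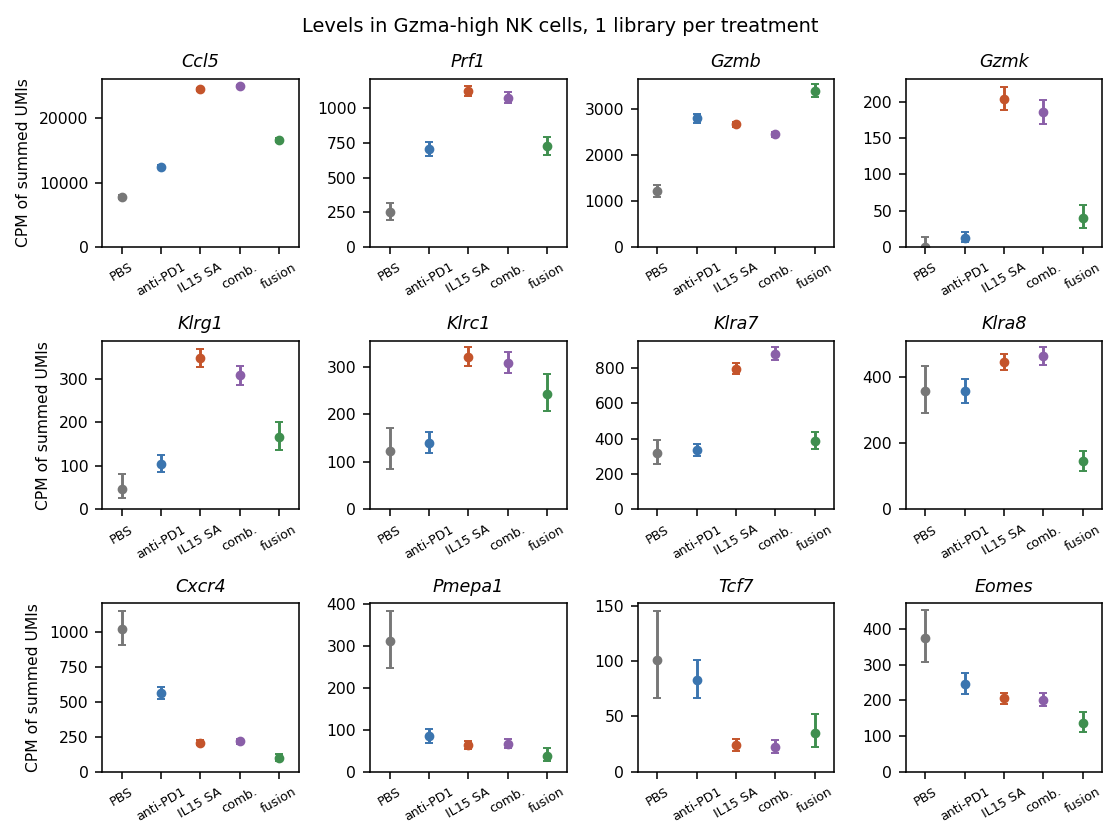
CPM of summed UMIs of selected genes in Gzma-high NK cells, 1 panel per gene and 1 point per library, with bars for the exact 95% Poisson interval (counting error only). Prf1, Ccl5, Gzmk and Klrg1 are highest in IL15 superagonist and combination, and Cxcr4 is highest in PBS at 1024 CPM.

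Klrg1, an inhibitory receptor for cadherins that marks terminal maturation, was most abundant where free superagonist had been given. It stood at 166 CPM in fusion (136 to 200), 307 in combination (286 to 330), 347 in IL15 superagonist (327 to 369), 104 in anti-PD1 (85.9 to 124) and 46.9 in PBS (25.0 to 80.1). The 5 libraries fall in 4 steps, since only IL15 superagonist and combination have touching intervals. Klrg1 was 7.41-fold (4.32 to 14.0) higher in IL15 superagonist than in PBS, 6.56-fold (3.81 to 12.4) in combination, 3.54-fold (1.99 to 6.86) in fusion and 2.21-fold (1.25 to 4.28) in anti-PD1. Against anti-PD1 the first 3 were 3.35-fold, 2.96-fold and 1.60-fold. At 2000 UMIs per cell, Klrg1 was seen in 22.7% of fusion cells, 42.7% in combination, 43.4% in IL15 superagonist, 13.5% in anti-PD1 and 6.76% in PBS, compared with 42.0%, 60.3%, 60.4%, 24.1% and 6.82% without thinning.

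The Ly49 genes did not differ as 1 family. Klra7, an inhibitory Ly49 receptor (Ly49G), stood at 385 CPM in fusion, 882 in combination, 796 in IL15 superagonist, 337 in anti-PD1 and 321 in PBS, or 2.48-fold (2.01 to 3.10) above PBS in IL15 superagonist, 2.75-fold in combination and 1.20-fold (0.939 to 1.55) in fusion. Against anti-PD1, Klra7 was 2.36-fold higher in IL15 superagonist and 1.14-fold in fusion. Klra1, another inhibitory member (Ly49A), was 2.13-fold above PBS in IL15 superagonist, at 154 against 72.1 CPM, and 2.32-fold above anti-PD1. Klra4, the activating Ly49D receptor, lay close together in 4 libraries, at 526 CPM in PBS (444 to 619), 441 in anti-PD1, 526 in IL15 superagonist (501 to 552) and 607 in combination, and stood at 388 in fusion. Its ratio of IL15 superagonist to PBS was 1.00 with bounds of 0.844 and 1.19. Klra8, the activating Ly49H receptor, stood at 145 CPM in fusion, 462 in combination, 445 in IL15 superagonist, 356 in anti-PD1 and 357 in PBS, so fusion alone was low, by 2.47-fold (1.84 to 3.31) against PBS. In the cells left by both removal steps Klra8 stood at 231 CPM in fusion against 352 in PBS, which is not past 2-fold. Thinned to 2000 UMIs, Klra8 was seen in 37.8 to 43.2% of cells of the first 4 libraries and in 27.7% of fusion cells, while Klra4 was seen in 36.5 to 38.7% in all 5. The first 300 transcript bases of Klra4 and Klra8 are 82% identical, so reads of Ly49 genes may also be shared.

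Klrc1, the inhibitory NKG2A receptor that reads Qa-1, was 2.61-fold (1.86 to 3.80) above PBS in IL15 superagonist, at 320 against 123 CPM, with 307 in combination, 243 in fusion and 139 in anti-PD1. Of 17 measured inhibitory receptors, 8 were at least 2-fold higher in IL15 superagonist than in PBS and 0 lower. The median log2 ratio was 0.88. Of 15 activating receptors and adaptors, 4 were higher and 0 lower, with a median of 0.56, both beside 0.06 over all genes. Of all genes, 9.25% were higher and 5.9% lower in that comparison. Against anti-PD1, 7 of 18 inhibitory receptors and 3 of 15 activating receptors were higher in IL15 superagonist and 0 lower, where 3.22% of all genes were higher, and Klrc1 was 2.30-fold higher. In fusion, 3 of 13 inhibitory receptors were higher and 1 lower, with a median of 0.26 beside 0.13 over all genes, of which 11.5% were higher and 8.51% lower.

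Activation and maturation genes outside the receptor families followed. Thy1, a surface glycoprotein gained on activated NK cells, stood at 777 CPM in fusion, 786 in combination, 850 in IL15 superagonist, 407 in anti-PD1 and 263 in PBS, and S100a6, a calcium-binding protein, at 2420, 2694, 2840, 949 and 775 CPM in that order. On both genes the 3 libraries with IL15 stood together above the other 2. The costimulatory receptor gene Tnfrsf9 (4-1BB) was 3.15-fold and Ly6c2, an antigen of mature NK cells, 3.83-fold above PBS in IL15 superagonist, and 1.86-fold and 3.05-fold above anti-PD1. Ly6c2 is also among the macrophage and monocyte markers. After both removal steps it stood at 302 CPM in IL15 superagonist, 167 in anti-PD1 and 113 in PBS, which is not past 2-fold against anti-PD1. The doublet step selects on Ly6c2 itself, so a fall after it is partly built in. With stricter T cell removal alone, Ly6c2 stood at 433 CPM in IL15 superagonist, 172 in anti-PD1 and 115 in PBS. Of 19 S100, annexin and cytoskeleton genes, 8 were at least 2-fold higher in IL15 superagonist than in PBS and 10 in fusion, with 0 lower in both, where 9.25% and 11.5% of all genes were higher. Against anti-PD1 they were 3 and 4 of 19, where 3.22% and 2.51% of all genes were higher. Il2rb, the receptor subunit that binds IL15, varied little, at 1132 CPM in fusion, 1285 in combination, 1360 in IL15 superagonist, 1131 in anti-PD1 and 1178 in PBS. Its partner Il2rg was 2.25-fold above PBS in IL15 superagonist and 1.56-fold above anti-PD1. The 22 measured oxidative phosphorylation genes had 0 members past 2-fold in that comparison and a median log2 ratio of −0.02.

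A second group of genes was highest in PBS. Cxcr4, the receptor for CXCL12 that holds lymphocytes in marrow and tissue, stood at 100 CPM in fusion (77.6 to 128), 217 in combination (199 to 236), 208 in IL15 superagonist (192 to 224), 560 in anti-PD1 (518 to 605) and 1024 in PBS (908 to 1150). The order PBS, anti-PD1, superagonist libraries and fusion has no overlap between steps. Cxcr4 was 4.93-fold (4.27 to 5.68) lower than PBS in IL15 superagonist, 4.73-fold in combination and 10.2-fold (7.78 to 13.5) in fusion, and fusion was 5.58-fold lower than anti-PD1. Fusion was also lowest on Cxcr4 in the macrophage gate and the CD8 T cell gate, so its low level was not particular to these cells. Pmepa1, a target of TGF-beta signalling that also feeds back on it, stood at 38.0 CPM in fusion, 65.6 in combination, 62.2 in IL15 superagonist, 83.6 in anti-PD1 and 310 in PBS. PBS alone was high on Pmepa1, and IL15 superagonist was 1.34-fold lower than anti-PD1. Smad7, an inhibitor within the same pathway, was also highest in PBS, at 465 CPM against 238 in IL15 superagonist, but it was 1.01-fold lower there than in anti-PD1. The list of TGF-beta response genes had no common direction in IL15 superagonist against PBS, since 2 of 10 were at least 2-fold higher (Itga1 and Entpd1) and 2 lower (Pmepa1 and Nt5e). Over all genes of that comparison 9.25% were higher and 5.9% lower.

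Of 15 transcription factors measured in IL15 superagonist against PBS, 0 were at least 2-fold higher and 2 lower, namely Ikzf2 and Rora. Their median log2 ratio was −0.06. Over all genes 9.25% were higher and 5.9% lower, so 0 and 2 of 15 lie near those shares. Against anti-PD1, 1 of 16 was lower, Ikzf2, where 2.82% of all genes were lower. Tcf7, which encodes TCF-1 of early NK stages and was counted in the immature NK list, stood at 35.0 CPM in fusion (22.2 to 52.5), 22.3 in combination (16.8 to 29.0), 23.8 in IL15 superagonist (18.6 to 29.9), 82.7 in anti-PD1 (67.0 to 101) and 101 in PBS (67.1 to 146). The 3 libraries with IL15 lay below the other 2, by 4.24-fold (2.64 to 6.64) for IL15 superagonist against PBS and 3.48-fold against anti-PD1. Eomes, the T-box factor that sets conventional NK cells apart from ILC1, stood at 137 CPM in fusion, 200 in combination, 205 in IL15 superagonist, 245 in anti-PD1 and 375 in PBS. Tbx21, its relative T-bet, stood at 132, 171, 169, 126 and 90.1 CPM in the same order, so PBS was highest on Eomes and lowest on Tbx21. After both removal steps, Eomes stood at 221 CPM in fusion, 219 in combination, 220 in IL15 superagonist, 263 in anti-PD1 and 361 in PBS, and fusion was no longer below the superagonist libraries. Against anti-PD1, Eomes was 1.19-fold lower in IL15 superagonist and 1.79-fold lower in fusion before those steps. Ikzf2, which encodes Helios, was 6.27-fold (4.10 to 9.48) lower in IL15 superagonist than in PBS, at 21.8 against 137 CPM, and 2.31-fold lower than in anti-PD1. Trdc, the T cell receptor delta constant gene, which NK cells can transcribe without a receptor, was 5.99-fold (3.57 to 9.85) lower than PBS and 3.23-fold lower than anti-PD1 in IL15 superagonist, and was seen in 27.3% of PBS cells, 17.3% in anti-PD1 and 5.70 to 9.24% elsewhere.

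Division genes were low in the superagonist libraries. Mki67, a proliferation marker, stood at 97.3 CPM in fusion (75 to 124), 9.71 in combination (6.22 to 14.4), 13 in IL15 superagonist (9.31 to 17.8), 56.6 in anti-PD1 (43.7 to 72.2) and 50.5 in PBS (27.6 to 84.7). IL15 superagonist was 3.87-fold (1.95 to 7.27) and the topoisomerase gene Top2a 3.95-fold (2.40 to 6.32) below PBS. Of 15 measured cell cycle genes, 0 were at least 2-fold higher and 7 lower in IL15 superagonist than in PBS, where 9.25% of all genes were higher and 5.9% lower. Against anti-PD1, 0 of 21 were higher and 17 lower, where 2.82% of all genes were lower, and Mki67 was 4.34-fold lower. Mki67 was seen in 5.68% of the PBS cells and 3.07% of those of IL15 superagonist, so these differences rest on few cells. Thinned to 2000 UMIs per cell, the shares were 2.70% (0.329 to 9.42) in PBS and 2.01% (1.13 to 3.29) in IL15 superagonist, which overlap.

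Anti-PD1 differed from the other treated libraries in inflammatory chemokines. Ccl3 and Ccl4 are chemokines that activated NK cells release. Ccl3 stood at 48.7 CPM in fusion (33.3 to 68.7), 66.0 in combination (56.2 to 76.9), 81.1 in IL15 superagonist (71.4 to 91.9), 426 in anti-PD1 (389 to 465) and 86.5 in PBS (55.4 to 129). Ccl4 stood at 633, 905, 671, 1936 and 569 CPM in the same order. Anti-PD1 alone was high on both, by 4.92-fold (3.27 to 7.76) on Ccl3 and 3.40-fold (2.89 to 4.02) on Ccl4 against PBS, and the combination, which also holds anti-PD1, was not. With stricter T cell removal and the doublet step, Ccl3 still stood at 491 CPM in anti-PD1 against 104 in PBS. Ifitm3, an antiviral membrane protein that myeloid cells also make, was 15.2-fold (6.91 to 41.6) above PBS in anti-PD1, but 21 cells held it, and its level was 328 CPM before and 22.2 CPM after both steps. H2-Eb1, an MHC class II gene, was 5.36-fold higher and stood at 14.8 CPM after both steps. H2-Eb1 is itself among the dendritic markers that the doublet step uses, so a fall after that step is partly built in. With stricter T cell removal alone it stood at 277 CPM in anti-PD1. The dendritic markers summed to 823 CPM in anti-PD1 members, against 149 to 527 elsewhere.

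The combination and IL15 superagonist libraries were close to each other. Of 7060 genes, 5 were at least 2-fold higher in combination (0.0708%) and 52 lower (0.737%), and the median log2 ratio was −0.00. Prf1 was 1.05-fold lower (0.994 to 1.10) in combination, Gzmk 1.10-fold lower (0.974 to 1.24), Klrg1 1.13-fold lower, Ccl5 1.02-fold higher and Klra7 1.11-fold higher. The effector and receptor genes that stood out against PBS thus differed by little between these 2 libraries. The 5 granule genes past 2-fold were Gzmc, Gzmd, Gzme, Gzmf and Gzmg, all lower in combination, by 2.27-fold for Gzmc and 8.32-fold for Gzmd. In IL15 superagonist the 6120 UMIs of Gzmd to Gzmg lay in 44 cells, and 9 cells held 99.2% of them. With stricter T cell removal and the doublet step together, Gzmd stood at 16.3 CPM in both libraries, Gzme was higher in combination, at 18.7 against 8.92 CPM, and Gzmc stood at 434 against 753 CPM, which is not past 2-fold. Against anti-PD1, where 2.11% of genes were at least 2-fold higher and 2.48% lower in combination, Klrg1 was 2.96-fold, Gzmk 15.2-fold, Klra7 2.62-fold and Ccl5 2.01-fold higher in combination, and Cxcr4 2.59-fold and Tcf7 3.72-fold lower.

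Fusion members differed from combination members in a checkpoint receptor, granzymes of the Gzmc group, division genes and Ly49 receptors. Over 5632 genes, 2.68% were at least 2-fold higher in fusion and 4.31% lower. Pdcd1 encodes PD-1, the receptor that the antibody part of the fusion protein binds. It had 0 UMIs in PBS and stood at 385 CPM in fusion (339 to 435), 4.45 in combination (2.22 to 7.97), 3.91 in IL15 superagonist (2.02 to 6.83) and 1.74 in anti-PD1 (0.211 to 6.29). Fusion was 86.4-fold (47.5 to 175) above combination. In the CD8 T cell gate, Pdcd1 stood at 378 CPM in PBS, 582 in combination and 846 in fusion, and in macrophages at 1.05 to 8.22 CPM. In Gzma-low cells of the NK gate it stood at 3.66 CPM in PBS, 51.9 in combination and 553 in fusion.

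The Pdcd1 signal of fusion lay in 30 of its 119 members (25.2%), which were deeper, with a median of 10312 UMIs against 3392 for the other 89. Beside a Pdcd1 UMI, Gzmc was seen in 90% of cells against 23.6% without, Gzmd in 76.7% against 4.49%, Lag3, an inhibitory receptor of activated lymphocytes, in 53.3% against 7.87%, and Mki67 in 46.7% against 3.37%. Ly49 receptors had the opposite split, with Klra7 in 16.7% against 68.5%, Klra4 in 13.3% against 50.6% and Klra8 in 10.0% against 40.4%. NK markers outside the Ly49 family went both ways. Klrb1c (NK1.1) was seen in 96.7% and 77.5% and Klre1 in 86.7% and 85.4%, while Eomes was seen in 16.7% of cells with Pdcd1 and 51.7% of cells without. The deeper cells with Pdcd1 held Ly49 transcripts less often in spite of their depth. T cell transcripts were present on both sides too, with Cd3g in 20% and 12.4% and Trac in 30.0% and 19.1%. The doublet step alone left 105 of the 119 fusion members and 20 of the 30 with Pdcd1, and stricter T cell removal alone left 78 and 17. Each step thus took a larger part of the cells with Pdcd1 than of all members. With stricter T cell removal and the doublet step together, 69 fusion cells were left, 11 of them with Pdcd1, and it stood at 234 CPM against 2.41 in combination. Whether the cells with Pdcd1 are conventional NK cells was not tested.

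**Figure D3:**
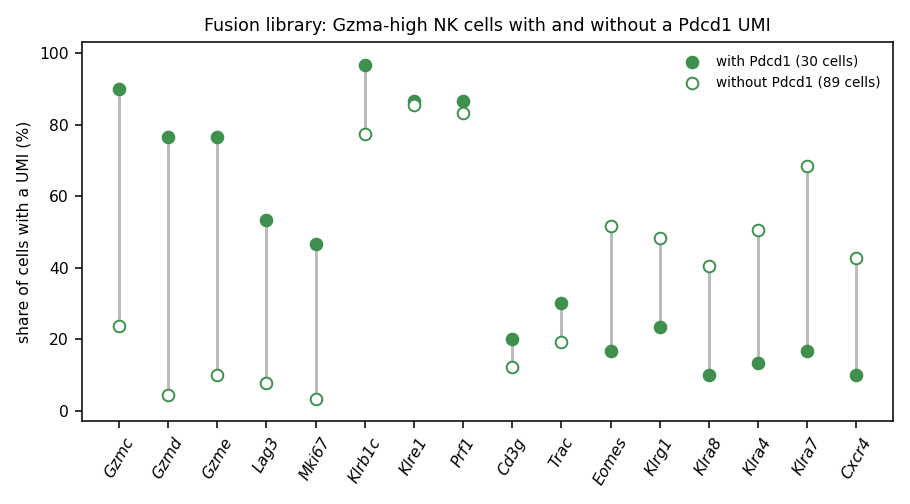
Share of cells (%) with a UMI of each gene among fusion members with a Pdcd1 UMI (30 cells, filled) and without (89 cells, open). Gzmc, Gzmd, Lag3 and Mki67 lie higher in the filled points and the Ly49 genes Klra4, Klra7 and Klra8 lie lower. Of other NK markers, Klre1 is at 86.7% and 85.4% and Eomes at 16.7% and 51.7%.

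Gzmc, granzyme C, stood at 9541 CPM in fusion, 957 in combination, 2173 in IL15 superagonist, 1267 in anti-PD1 and 256 in PBS, and was seen in 40.3%, 19.0%, 22.8%, 14.7% and 11.4% of cells in that order. It was 9.97-fold higher in fusion than in combination, but was no mark of Gzma-high cells, since Gzma-low cells stood at 2844 CPM in PBS, 3370 in combination and 12011 in fusion. Gzmd was 17.6-fold, Gzme 16.1-fold and Gzmf 23.0-fold above combination, and 19 cells held 97.6% of the 3481 UMIs of Gzmd to Gzmg in fusion. Among members left by the stricter removal and doublet step, Gzmc stood at 5625 CPM in fusion and 434 in combination, and Gzmd at 776 and 16.3.

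Of 22 measured cell cycle genes, 16 were at least 2-fold higher in fusion than in combination and 0 lower. The median log2 ratio was 1.92 beside −0.05 over all genes. Mki67 was 10.0-fold (6.18 to 16.8), Top2a 4.73-fold and Stmn1, which destabilises microtubules in mitosis, 8.13-fold higher. After both removal steps Mki67 stood at 74.7 against 4.82 CPM, Top2a at 48.7 against 18.1 and Stmn1 at 188 against 37.9. Mki67 was seen in 14.3% of fusion members and 2.94% of combination members. Of 18 inhibitory receptors, 1 was at least 2-fold higher and 6 lower, with a median of −0.61. Klra8 was 3.20-fold (2.59 to 3.98), Klra7 2.29-fold (2.01 to 2.62) and Klrg1 1.85-fold lower in fusion. Both removal steps together left Klra8 at 231 against 472 CPM, Klra7 at 520 against 910 and Klrg1 at 211 against 307, so fusion was still lower on all 3, by less. The effectors Gzmk, Ccl5 and Prf1 were 4.69-fold (3.16 to 7.25), 1.5-fold and 1.48-fold lower, and Cxcr4 2.16-fold lower. After both removal steps Gzmk stood at 45.5 CPM in fusion against 202 in combination and Prf1 at 825 against 1131. Ccl5 then stood at 23421 against 25251, so little of its difference was left. Cxcr4 stood at 127 against 223, which is not past 2-fold. Lgals3, galectin-3, was 4.94-fold higher, at 858 CPM in fusion against 174 in combination, with macrophage markers summing to 773 and 496 CPM in the same cells. Lgals3 stood at 694 against 171 CPM after the doublet step and at 520 against 181 CPM after both removal steps. Fusion was also highest of all libraries on Lgals3 in the macrophage gate and the CD8 T cell gate, so its high level was not particular to these cells.

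Within each library, the Gzma-high cells were compared with the Gzma-low cells of the same gate, which gives 5 pairs and the only test across libraries that the design allows. Because the 2 sides were divided by Gzma in the same cells, the test is of what other genes go with that division. Of 4417 genes, edgeR called 183 higher (4.14%) and 170 lower (3.85%) in Gzma-high cells, or 7.99% in all. Without the library as a block the counts were 30 and 30. Leaving out the IL15 superagonist library gave 93 and 65, and leaving out combination 97 and 72. DESeq2 called 108 and 104.

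Ly49 receptors and effector genes rose with Gzma. Klra7 was at 390 CPM in Gzma-high against 26.7 in Gzma-low cells in fusion, 900 against 11.3 in combination, 810 against 15.1 in IL15 superagonist, 341 against 91.2 in anti-PD1 and 323 against 69.5 in PBS (CPM here leaves the 8 rule genes out). High cells lay above low cells in all 5 pairs, by 3.72 ± 0.44 (SE) on the log2 scale (edgeR adjusted p = 0.000251). Klrg1 rose by 2.81 ± 0.39 (edgeR adjusted p = 0.000551), Klra4 by 2.72 ± 0.40 and Klra8 by 2.62 ± 0.41, each higher in 5 of 5 libraries. Klra4 and Klra8 are markers named with the label, so their rise is given as a description. Klra1 and Klra9 rose by 2.85 and 2.75. Cma1 had 0 UMIs in the Gzma-low cells of all 5 libraries and 854 in Gzma-high cells, at least 60.6-fold higher against a floor of 3 UMIs over the Gzma-low cells (edgeR adjusted p = 1.42e-05). Ccl5 rose by 2.79 ± 0.23 (edgeR adjusted p = 1.13e-05), Serpinb9b, a relative of the granzyme B inhibitors, by 3.51, Prf1 by 1.45, Gzmb by 1.30 and Nkg7 by 1.14. Eomes rose by 1.85, while Tbx21 did not pass, at 0.07 (edgeR adjusted p = 0.863). Of 14 tested NK markers 11 rose and 0 fell, where 4.14% of all genes rose and 3.85% fell. Klra4 and Klra8 are among the 11, so this count does not test the label.

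ILC1 and tissue-retention genes fell. Of 12 tested, 9 were lower and 0 higher, with a median log2 difference of −2.33 beside −0.015 over all genes. Of all genes tested, 3.85% were lower and 4.14% higher. Il7r, the IL-7 receptor, was at 3.08 CPM in Gzma-high against 34.3 in Gzma-low cells in fusion, 18.6 against 232 in combination, 15.3 against 172 in IL15 superagonist, 8.81 against 94.7 in anti-PD1 and 3.63 against 84.1 in PBS. It fell by 3.59 on the log2 scale (SE 0.17, edgeR adjusted p = 5.59e-08) and was lower in 5 of 5 libraries. The others that fell were Tmem176b, Tmem176a, Inpp4b, Cxcr6, Rgs2, Itga1, Cd200r1 and Tnfsf10. Cxcr6, a receptor of tissue-resident lymphocytes, fell by 3.51 (SE 0.52, edgeR adjusted p = 0.000842). Rora, a nuclear receptor of innate lymphoid cells, fell by 3.76 (SE 0.28, edgeR adjusted p = 4.81e-06). Without the IL15 superagonist library Itga1 and Cd200r1 did not pass, DESeq2 did not call Itga1, and Tnfsf10 did not pass when any 1 of anti-PD1, IL15 superagonist and combination was left out.

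Inhibitory receptors went both ways. Of 17 tested inhibitory receptors 9 rose, among them Klra1, Klra7, Klra9 and Klrg1, and 6 fell, among them Klrc1 by 0.88 and Klrb1b by 0.95 on the log2 scale, Lag3 by 1.49 and Ctla4 by 1.03. Gzmc fell by 1.56, the 1 granule gene of 18 that did, beside 5 that rose. Of 12 immature NK genes, 2 rose and 6 fell, the latter including Kit by 1.99, Ltb by 2.26, Xcl1 by 1.49 and Tcf7 by 1.43. Of 10 tested mature NK genes, 6 rose and 1 fell, which was Ly6c2. Klf2 and Itga4, genes of recirculating lymphocytes, rose by 1.26 and 1.20. Of 16 cell cycle genes 0 rose and 1 fell, and of 22 oxidative phosphorylation genes 1 rose and 0 fell. Beside all these counts, 4.14% of the 4417 genes tested rose and 3.85% fell. The cell cycle and oxidative phosphorylation lists lie near those shares. No marker of T cells was called among the 4 tested, which were Lat, Cd28, Trbc1 and Trbc2. Cd3g, Trac, Cd8a and Cd4 were not among them, so this does not compare T cell traces on the 2 sides. Trac was seen in more Gzma-high than Gzma-low cells in every library but anti-PD1, such as 12.5% against 1.33% in PBS.

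**Figure D4:**
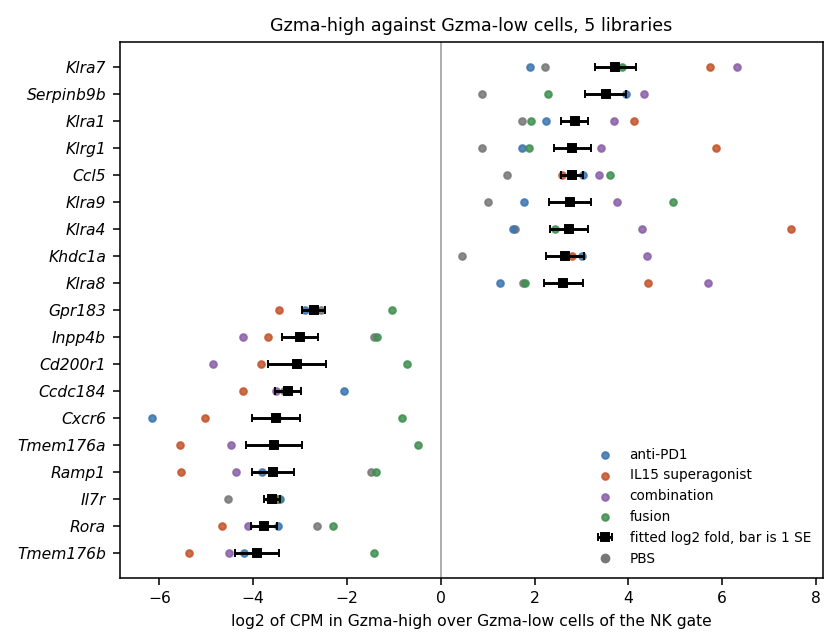
Log2 ratio of CPM in Gzma-high over Gzma-low cells of the NK gate for named genes, with black squares for the edgeR estimate, bars for 1 SE and coloured points for the 5 libraries (none where 1 side had 0 UMIs). Points on the right, such as Klra7 at 3.72, are higher in Gzma-high cells, and points on the left, such as Il7r at −3.59, are higher in Gzma-low cells.

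Several of these genes also differed among the members. Members of the 3 larger libraries were put in 4 groups of equal size by Gzma per 10000 UMIs, and CPM was taken over UMIs other than Gzma. From the lowest to the highest group, Ccl5 went from 16438 to 28380 CPM in combination, from 15651 to 28588 in IL15 superagonist and from 4656 to 23577 in anti-PD1. Gzmb went from 1758 to 3588, from 2382 to 3658 and from 1626 to 5943 in that order, and Prf1 from 701 to 1382, from 864 to 1475 and from 631 to 1153. All 3 effectors were therefore higher in the top than in the bottom group of each library. Ltb, lymphotoxin beta, went the other way, from 202 to 16.6 CPM in combination, from 102 to 10.8 in IL15 superagonist and from 239 to 4.22 in anti-PD1, as did Tcf7, from 57.5 to 3.32, from 45.3 to 10.8 and from 143 to 25.3. Xcl1 went from 875 to 449, from 557 to 276 and from 1043 to 460. Not every course was steady. In combination, Xcl1 was lowest in the third group. Ccl5 was highest in the third group in IL15 superagonist, at 30436 CPM, and in combination, at 29521. In anti-PD1, Prf1 and Gzmb were lowest in the second group, at 514 and 1607 CPM, as was Gzmb in IL15 superagonist, at 2288. These are descriptions of cells within a library, with no test.

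**Figure D5:**
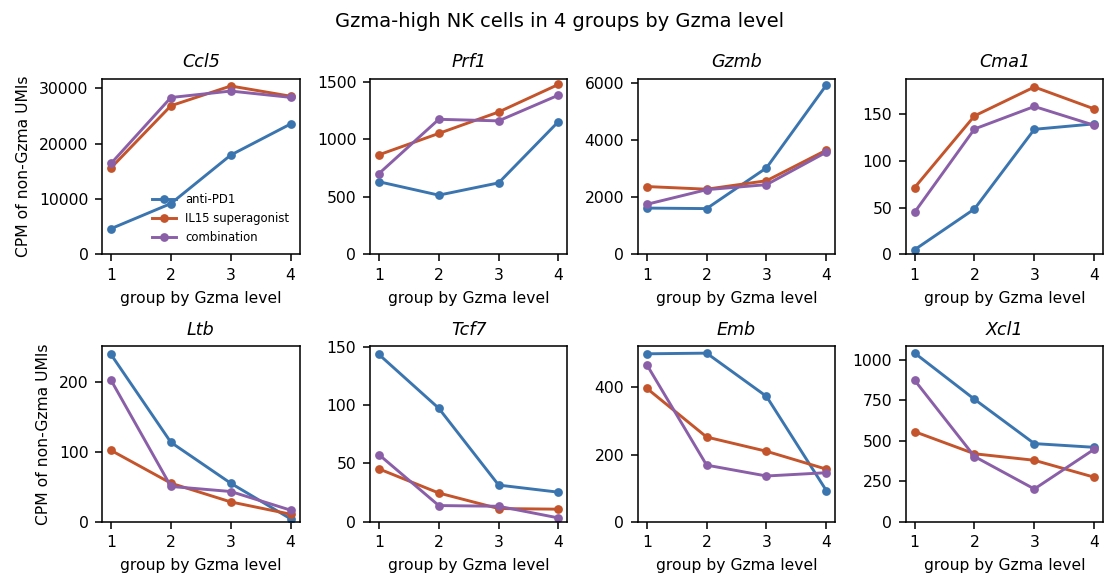
CPM of UMIs other than Gzma for selected genes in Gzma-high NK cells, in 4 groups by Gzma level (1 lowest, 4 highest), with 1 line for each of anti-PD1, IL15 superagonist and combination. Ccl5, Prf1 and Gzmb are higher in group 4 than in group 1 in all 3 libraries, and Ltb and Tcf7 are lower.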

How the data were processed

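The deposited values are whole UMI counts per gene and barcode, for which the submitters' processing notes name Cell Ranger 2.1.1 and mm10. The sources used here do not give how barcodes were filtered or how reads shared by similar genes were handled. The members, the gene lists and the tests were chosen with earlier results of these data known. Barcodes with at most 10% mitochondrial UMIs were kept, the rule was applied to raw UMIs, and members' UMIs were summed per library and divided by their total (CPM). No doublet caller was run, and barcodes with at least 2 genes and 3 UMIs of another lineage's markers were left out in an alternative.

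Pairs of libraries were compared by the ratio of CPM over genes with at least 50 UMIs in both together, with 0.5 added to each count for the log2 ratio and 2-fold as the limit. Gzma-high and Gzma-low sums were tested with the quasi-likelihood test of edgeR 4.0.16 (R 4.3.3), TMM scaling, filterByExpr, the library as a block and Benjamini-Hochberg adjustment over all genes at 0.05, without the 8 rule genes. The 2 sums of a library come from the same tumours and run, so the block follows from the design, and their deviations correlated at 0.112 to 0.59. On simulated data for this comparison over 4341 genes, 75.27% of genes changed by 1 and 100% of genes changed by 2 on the log2 scale were recovered, with 3 false calls. The simulation set a dispersion of 0.05 for every gene and the same fold in each library. Neither was estimated from these sums, so the figures hold for that setting only. Intervals were exact (Poisson, conditional binomial or Clopper-Pearson; scipy 1.17.1) and PCR copies beyond UMIs do not enter them. Genes were named from the 24 fixed lists if they had at least 20 UMIs, from the 8 largest folds in each direction per pair of libraries, and from the 10 largest in each direction for the test. Alternatives were other Gzma minimums, thinning to 2000 UMIs, stricter T cell removal (Cd3g, Cd8a, Cd4 and Trac also at 0), the doublet step, a 5% mitochondrial limit, other filters, pseudocounts and scalings, DESeq2 1.42.0, and each library left out. Sets of cells by Pdcd1 and by Gzma level among the members were looked at after the data had been seen.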

Additional observations from a re-analysis of the deposited data

How the results depend on the processing

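The order of the 5 shares was kept except between PBS and fusion, and the shares moved beyond their intervals as follows. With each barcode thinned to 2000 UMIs they were 1.09% in fusion, 4.91% in combination, 8.40% in IL15 superagonist, 2.62% in anti-PD1 and 0.797% in PBS. Stricter T cell removal gave 0.901% in fusion, 5.02% in combination, 8.20% in IL15 superagonist and 3.21% in anti-PD1. The doublet step gave 10.1% in IL15 superagonist. Both steps together gave 0.797% in fusion, 4.71% in combination, 7.43% in IL15 superagonist and 2.91% in anti-PD1, and a Gzma minimum of 10 UMIs gave 1.06% in PBS. Counts of genes past 2-fold moved by over 1.5 times under these settings, and the cause was not tested beyond the numbers of cells and genes that each leaves. A filter of 20 UMIs gave 473 higher and 327 lower for anti-PD1 against PBS, 867 and 764 for IL15 superagonist, 727 and 685 for combination, 627 and 591 for fusion, 397 and 498 for fusion against combination, 51 and 158 for combination against IL15 superagonist and 271 and 404 for combination against anti-PD1. A filter of 200 UMIs gave, in the same order, 36 and 8, 187 and 58, 155 and 49, 71 and 35, 34 and 58, 1 and 15, and 44 and 35. Thinning gave 72 and 31 for anti-PD1 against PBS, 187 lower for IL15 superagonist, 127 lower for combination, 85 and 44 for fusion, 25 and 94 for fusion against combination, 14 and 19 for combination against IL15 superagonist and 84 and 43 for combination against anti-PD1. Stricter T cell removal with the doublet step gave 110 higher for anti-PD1, 190 lower for combination and 152 and 93 for fusion against PBS, 72 higher for fusion against combination, 10 and 12 for combination against IL15 superagonist and 75 lower for combination against anti-PD1. The doublet step gave 124 higher for anti-PD1 against PBS, 18 lower for combination against IL15 superagonist and 86 lower for combination against anti-PD1. Stricter T cell removal gave 177 and 120 for fusion against PBS and 8 higher for combination against IL15 superagonist. All cells of the NK gate gave 355 lower for fusion against PBS, and 10 and 32 for combination against IL15 superagonist. A pseudocount of 2 gave 119 higher for anti-PD1, 272 for IL15 superagonist and 250 for combination against PBS. A filter added after the data were seen, at least 10 UMIs expected in each library, gave 287 and 118 for IL15 superagonist and 270 and 118 for combination. Anti-PD1 in place of PBS gave 210 and 184 for IL15 superagonist, 128 and 150 for combination and 104 higher for fusion.

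Among single genes, Gzmb went to −0.0702 for IL15 superagonist and −0.19 for combination on the log2 scale with anti-PD1 as the reference. Gzmc went to −0.17 for anti-PD1 against PBS with a Gzma minimum of 3 UMIs, and for combination to −0.45 with that minimum, −0.22 over all cells of the NK gate and −0.41 with anti-PD1 as the reference. For combination against IL15 superagonist, both cell-removal steps together took Gzmd to 0.0033 and Cxcl2 to 0.088. In the test of Gzma-high against Gzma-low cells, the fit without the library block called 30 higher and 30 lower, all 60 among the 353, and DESeq2 called 108 and 104. No filter gave 396 higher and thinning 111 higher. Leaving out each library in turn gave 93 to 213 higher and 65 to 203 lower, the lowest without IL15 superagonist. Tbx21 went to −0.0253 without the anti-PD1 library and lay at up to 0.154 without each other one. Of the genes named, without the block the calls of Gzmb, Gzmc, Eomes, Tcf7, Klrc1, Klrb1b, Lag3, Ctla4, Klf2, Itga4, Ly6c2, Tmem176a, Itga1 and Cd200r1 did not pass, and Cd200r1 also failed without IL15 superagonist. PBS and fusion, with 88 and 119 members, limit every comparison they enter.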
